A study of Mus musculus with 8 samples.

Results

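The data described here are the islet transcriptomes of floxed control NOD mice, taken on their own. They were chosen by group label: the 4 samples labelled WT, of 8 samples in the series, and no comparison with the other 4 was made. The mice were of the NOD/ShiLtJ strain, which develops autoimmune diabetes, were 7 weeks old and were homozygous for a floxed IRE1α gene (IRE1α fl/fl, gene symbol Ern1), an allele that Cre recombinase can excise. Tamoxifen, prepared at 10 mg/ml, was injected intraperitoneally 2 times every 24 hours on 5 days, as recorded for these controls as well as for the knockouts. The labels give neither the promoter that drives Cre nor whether the floxed controls carried a Cre transgene. Islets were released with collagenase and protease, separated from exocrine tissue on Histopaque-1077 and picked by hand. The design text gives 4 mice per group, so each library was taken as 1 animal, called replicate 1 to 4 below. The samples are whole islets, so a low signal from fewer cells of a type and one from less RNA per cell cannot be told apart.

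Pancreatic islets are clusters of endocrine cells in which insulin-secreting beta cells are joined by alpha cells that make glucagon, delta cells that make somatostatin, and rarer cells that make pancreatic polypeptide or ghrelin. Mice carry a pair of insulin genes: Ins2 resembles the single insulin gene of other mammals, and Ins1 is a copy of it that lost an intron. Beta cells are known for devoting a very large part of their mRNA to insulin, which is folded in the endoplasmic reticulum (ER), packed in granules and cut from its precursor by prohormone convertases.

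The deposited table holds normalized values, rounded to whole numbers, for 14126 genes. Its 4 control columns summed to 34764897, 33769937, 33631875 and 34858983, totals that follow normalization and are not sequencing depths. Between 11 and 34 genes per library were listed at 0, and 1 gene was at 0 in all 4. A share below is a percentage of a library's summed values, in which long transcripts weigh more. To compare levels between genes, values were divided by the length of the gene's exons in kilobases (value per kb). Spread between libraries is the SD of log2(value + 1), with n = 4.

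The label was checked against the 4 hormone genes that mark islets. Ins1 lies at chr19:52264297-52265476 on the plus strand, Ins2 at chr7:142678656-142743381 on the minus strand, Gcg (glucagon) at chr2:62474530-62483650 on the minus strand and Sst (somatostatin) at chr16:23889573-23890958 on the minus strand, in GRCm38 with GENCODE M21 gene limits. Promoter sequences are shown for the 3 that the RefSeq promoter table for GRCm38.p6 holds, because the description of the islet hormones below turns on these genes. Each is the 250 bases before the RefSeq start, 5′ to 3′ on the gene's strand, at chr19:52264047-52264296 for Ins1, chr2:62483654-62483903 for Gcg and chr16:23890845-23891094 for Sst. The RefSeq start of Sst lies inside the GENCODE limits, so the Sst window overlaps them from 23890845 to 23890958. Capitals mark matches, on either strand, to CATCTG (an E box), TAAT (the core bound by many homeodomain factors), TGACGTCA (the full cAMP response element) and TATAAA (a core promoter element), and no 2 matches overlapped.
Ins1: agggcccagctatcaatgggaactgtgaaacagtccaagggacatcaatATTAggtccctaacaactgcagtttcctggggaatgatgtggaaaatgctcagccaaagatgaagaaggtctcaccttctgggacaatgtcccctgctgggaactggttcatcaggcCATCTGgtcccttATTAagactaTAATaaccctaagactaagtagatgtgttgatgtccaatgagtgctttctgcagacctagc
Gcg: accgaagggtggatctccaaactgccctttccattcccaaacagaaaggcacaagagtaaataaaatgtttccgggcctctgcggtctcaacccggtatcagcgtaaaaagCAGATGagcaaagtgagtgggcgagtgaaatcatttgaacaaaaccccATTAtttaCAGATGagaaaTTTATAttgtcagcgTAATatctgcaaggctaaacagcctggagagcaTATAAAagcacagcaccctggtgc
Sst: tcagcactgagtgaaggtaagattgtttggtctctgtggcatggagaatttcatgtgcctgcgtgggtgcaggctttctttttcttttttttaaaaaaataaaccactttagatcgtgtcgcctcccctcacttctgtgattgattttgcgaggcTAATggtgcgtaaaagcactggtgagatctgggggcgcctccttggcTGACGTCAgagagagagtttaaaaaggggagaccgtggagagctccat
The Ins1 window holds 1 CATCTG and 3 TAAT matches, and the Gcg window holds 2 CATCTG, 2 TAAT and 2 TATAAA matches. In the Sst window there is 1 TAAT match and 1 TGACGTCA match. The latter lies 48 to 41 bases before the RefSeq start and within the GENCODE gene limits. Of 32851 promoter windows of this length in the table, 14.4% hold CATCTG, 54.9% TAAT, 1.55% TGACGTCA and 12.4% TATAAA. A match is a description of the letters, not a binding site.

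Insulin mRNA led the nuclear transcriptome of every control library. Ins2 had values of 3066238, 3357417, 3044173 and 3096540 in replicates 1 to 4, and ranked 2 among all genes in each. Ins1 had 1888108, 1985505, 1742193 and 1893386, and ranked 3 in each. The 4 libraries were close to each other for both genes, with replicate 2 the highest and replicate 3 the lowest. Together the insulin genes took 14.3%, 15.8%, 14.2% and 14.3% of all values, or 18.4% ± 0.947 (SD, n = 4) of the values of nuclear protein-coding genes. Per kb, the mean level of Ins2 was 2394125 ± 111132 and that of Ins1 was 1767701 ± 94691 (SD, n = 4). The ratio of Ins2 to Ins1 per kb lay between 1.31 and 1.41 over the libraries. This ratio depends on the length used: it averaged 1.36 with all exons of the gene, 1.94 with the longest annotated transcript and 3.72 with the median of annotated transcripts. The coding parts of both genes are also nearly alike in sequence, so how reads were divided between them is uncertain.

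The single most abundant RNA of the table was mt-Rnr2, the large ribosomal RNA of mitochondria, with 5797628, 4869747, 4067265 and 4798709. The top 10 genes by mean value were mt-Rnr2, Ins2, Ins1, Gcg, Iapp, mt-Rnr1, Rn7sk, mt-Co1, Chga and Malat1. The 10 most abundant genes of each library held 37.8%, 37.5%, 34.7% and 37.5% of its total. It took 140, 151, 192 and 134 genes to reach 50% of the total, and 4660 ± 119 genes (SD, n = 4) to reach 90%. When only nuclear protein-coding genes were counted, 490 ± 24.8 genes made up 50%.

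On the scale of values per kb the concentration was steeper. The 10 most abundant nuclear coding genes held 53.0% ± 1.88 (SD, n = 4), and 6, 4, 9 and 5 genes made up 50% in replicates 1 to 4. With the median annotated transcript as length this became 111 genes on average. In the order of mean level per kb, Ins2 and Ins1 were followed by Iapp, Gcg, Sst, Chga, Scg2, Ppy, Eef1a1 and G6pc2. Iapp encodes amylin, the peptide co-secreted with insulin, Chga and Scg2 encode granins of the secretory granule, and G6pc2 encodes an islet glucose-6-phosphatase. Iapp and Gcg did not keep their order: Iapp ranked 3 per kb in replicates 1 and 2, and Gcg ranked 3 in replicates 3 and 4. Eef1a1, a translation elongation factor, is the one gene of this top 10 that is known for its use in every cell.

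**Figure D1:**
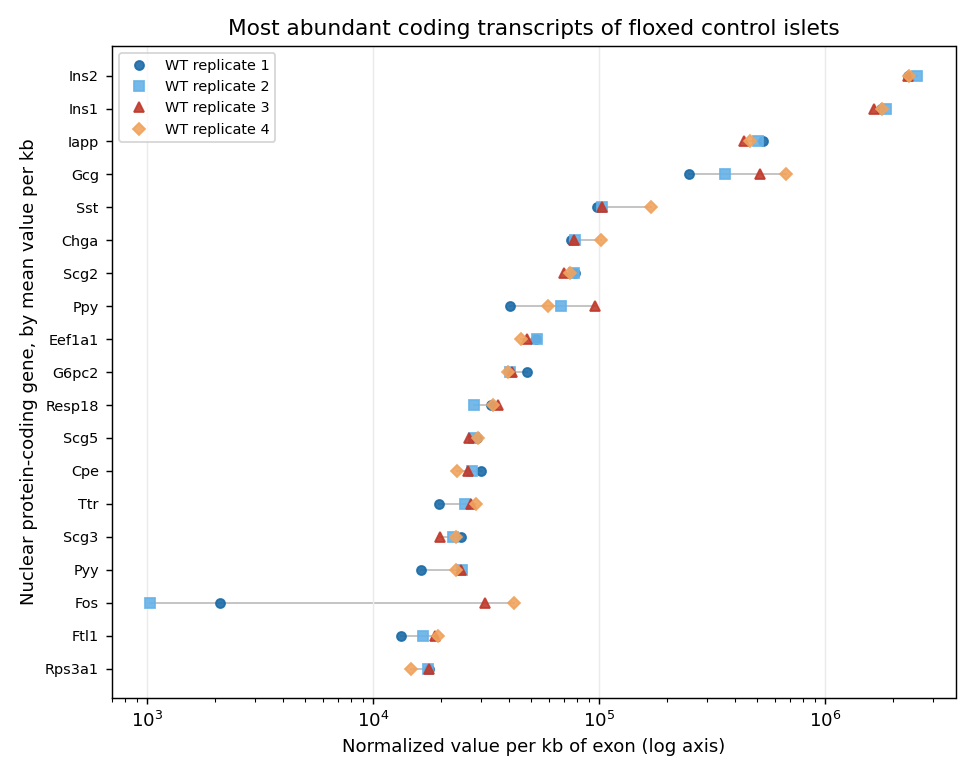
Values per kb of exon (log axis) of nuclear protein-coding genes among the 20 with the highest mean, 1 marker per control library and a grey line from the lowest to the highest. The insulin genes stand close together near the right edge, Gcg runs from 250952 in replicate 1 to 671671 in replicate 4, and Fos spans the widest range.

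The other islet hormones varied more than insulin. Gcg had values of 374922, 540428, 768066 and 1003476, lowest in replicate 1 and highest in replicate 4. Its spread was 0.62, against 0.07 for Ins2 and 0.08 for Ins1. Sst had 70309, 74438, 74373 and 122607, with 3 libraries nearly level and replicate 4 above them. Ppy, pancreatic polypeptide, had 20159, 34033, 47934 and 29703, highest in replicate 3. Pyy, peptide YY, had 10307, 15661, 15488 and 14659, with replicate 1 below the other 3.

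Among the 5 genes Ins1, Ins2, Gcg, Sst and Ppy, taken per kb, Ins2 accounted for 46.8% to 51.9% and Ins1 for 36.9% ± 2.07 (SD, n = 4). Gcg accounted for 5.57%, 7.29%, 11.0% and 13.3% in replicates 1 to 4. Sst accounted for 2.17%, 2.08%, 2.21% and 3.37%, and Ppy for 0.895%, 1.37%, 2.05% and 1.18%. The ratio of the insulin genes to Gcg per kb was thus 16.4, 12.2, 7.70 and 6.17, while that of the insulin genes to Iapp stayed between 7.72 and 9.07. The hormone shares also depend on the length used. With the median annotated transcript, Ins2 averaged 70.0%, Ins1 18.8%, Gcg 9.24%, Sst 1.25% and Ppy 0.709%. With the longest annotated transcript Ins2 averaged 57.2% and Ins1 29.5%. Which cells or how many of them these shares and ratios reflect was not measured.

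Minor peptides were present over a wide range of levels. Ucn3, the urocortin of mature beta cells, had 12767, 13276, 11231 and 14256. Npy, neuropeptide Y, had 1202, 1890, 1000 and 1847, and Pdyn, prodynorphin, had 2719, 2711, 1496 and 2105. Ghrl, ghrelin, had 135, 4, 9 and 3, so nearly all of its signal came from replicate 1. Trh had 7, 3, 84 and 120, Tac1 had 0, 0, 141 and 62 and Cartpt had 1, 2, 44 and 28. These 3 neuropeptide genes were higher in replicates 3 and 4 than in replicates 1 and 2, with no overlap. Those were the 2 highest libraries for 28.1% of all genes with a mean of at least 50. Cartpt, with a mean of 18.75, is not in that set, and Tac1 (50.75) and Trh (53.5) only just are. Spread is wide at such levels, with a median of 0.50 at means of 10 to under 50 and 0.35 at 50 to under 100. Gast (gastrin) averaged 9.25 and Cck (cholecystokinin) 1, values at which a single rounded unit matters.

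Marker lists placed beta cell genes far above those of other cells. The beta list took 17.1%, 18.5%, 16.6% and 16.7% of the total, of which Ins2 made up 53.2% on average. Without Ins2 its summed share was 8.06% ± 0.443 (SD, n = 4). Ins1 and Ins2 together held 14.7% of the total on average, so the list rested mostly on insulin. All 6 defining beta markers were present, and 5 of them had values above 10000 in every library. The exception was Mafa, a transcription factor that marks mature beta cells, with 736, 1247, 1246 and 2761. The alpha list ran from 1.26% in replicate 1 to 3.10% in replicate 4, and 90.4% of it was Gcg. Without Gcg the summed share was 0.209% ± 0.0153 (SD, n = 4), so the range of the list rested on Gcg. Of 15 alpha genes, 9 were highest in replicate 4 and 11 lowest in replicate 1, as Gcg was, against 24.6% and 27.7% of all genes. Irx2, an alpha cell transcription factor, had 202, 285, 539 and 731, the order seen for Gcg. Ttr, transthyretin, had 23321, 30217, 32328 and 33697. Tmem27, Slc7a2 and Gc, listed as alpha genes, did not share that order: Gc had 3914, 4230, 3558 and 2763, lowest in replicate 4.

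Delta cell genes stood at 0.239%, 0.257%, 0.257% and 0.389% of the total, 87.2% of it Sst. Without Sst the summed share was 0.0367% ± 0.000475 (SD, n = 4). The excess of Sst in replicate 4 was not matched by all of its companions. Hhex, a delta cell transcription factor, had 357, 324, 379 and 407, and Rbp4 had 2416, 2513, 2651 and 2930. Frzb had 6647, 6322, 6257 and 6222, lowest in that library.

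**Figure D2:**
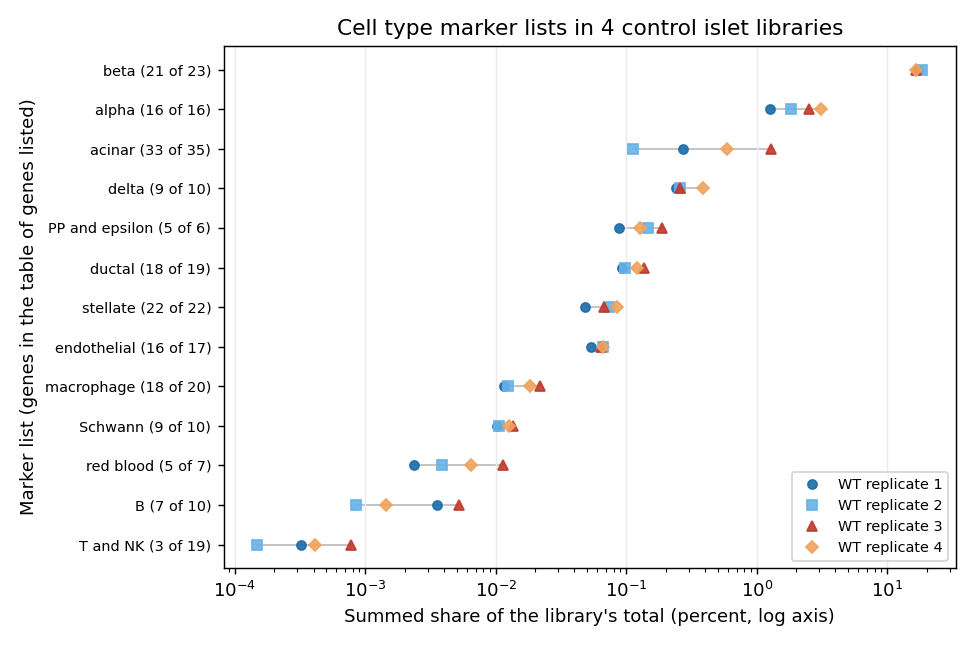
Summed share of each cell type marker list in the library's total (percent, log axis), 1 marker per control library, with the number of listed genes found in the table. The beta list lies between 16.6% and 18.5%, the alpha list between 1.26% and 3.10%, and the acinar list spans 0.112% to 1.29%.

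Genes of the secretory granule took a summed share that was nearly even between libraries. The 17 granin and prohormone processing genes took 2.61% ± 0.0968 (SD, n = 4) of the total. Of them 2 differed over 2-fold, against 12.2% of all genes with a mean of at least 50. Chga, 25.7% of the list, had 206835, 216331, 214259 and 280471, with replicate 4 above the others. Pcsk2, a prohormone convertase, had 121311, 125963, 116349 and 129434. Its partner Pcsk1 had 31763, 29874, 21737 and 21473, higher in replicates 1 and 2 with no overlap. Those were the 2 highest libraries for 34.0% of all genes with a mean of at least 50. Cpe, the carboxypeptidase that trims the cut hormone, had 78279, 71857, 68951 and 61215. At the other end of the list Vgf, a granin-like precursor, had 179, 216, 717 and 669, and Pcsk1n, an inhibitor of Pcsk1, had 716, 1211, 2304 and 2774.

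ER folding genes held 1.55% ± 0.173 (SD, n = 4), and none of the 26 differed over 2-fold between libraries, against 12.2% of all genes with a mean of at least 50. All 26 had a mean of at least 1000, and the share over 2-fold depends on level. It was 4.57% at means of 1000 to under 5000, 6.92% at 5000 to under 10000 and 14.8% at 10000 or more. The most abundant was Ero1lb, a beta cell oxidase that drives disulphide formation, with 124844, 107162, 94983 and 101391. Hspa5 (BiP), the main ER chaperone, had 76515, 65669, 69081 and 68274. Of the 26 genes, 18 were highest in replicate 1 and 19 lowest in replicate 3. Over all 12833 genes with a mean value of at least 50, those shares were 30.3% and 24.8%. The ER entry list, which covers the translocon and signal peptidase, showed 19 of 25 genes highest in replicate 1.

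The floxed gene was expressed in every control. Ern1 had values of 5549, 5164, 4622 and 4500, a mean of 4959 ± 488 (SD, n = 4) and rank 806 of all genes. Xbp1, whose mRNA IRE1α splices, had 10805, 10026, 12356 and 10795. Atf6 and Eif2ak3, the other sensors of ER stress, had 6360 and 2596 on average. The table gives 1 value per gene, so neither Xbp1 splicing nor the state of the floxed exon can be read from it. Among the 15 regulators of the unfolded protein response, Atf3 ranged from 31 in replicate 2 to 20348 in replicate 3. Ddit3 (CHOP) had 477, 499, 3000 and 2644, and Atf4 had 7595, 7767, 16584 and 15573. Trib3 had 72, 56, 220 and 150, and Ppp1r15a had 921, 850, 11543 and 12870. These 5 of the 15 genes differed over 2-fold, against 12.2% of all genes, and the other 10 did not.

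Of 25 glucose sensing and exocytosis genes, 0 differed over 2-fold between the libraries, against 12.2% of all genes. However, 21 of them had a mean of at least 1000, and at means of 1000 to under 5000 the share was 4.57%. Slc2a2, the glucose transporter GLUT2, had 39574, 37226, 28349 and 25844. Abcc8, a subunit of the ATP-sensitive potassium channel, had 26058, 30355, 29834 and 27895, and Slc30a8, the granule zinc transporter, had 29591, 27494, 25152 and 20172.

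Transcription factors of islets varied more, with a median spread of 0.28 against 0.19 over all genes. Pax6 led them with 10231, 11064, 13938 and 15361. Pdx1, a master regulator of the pancreas and beta cell, had 5179, 5499, 3478 and 4648. Neurod1 had 3169, 2934, 7397 and 11013, and Nkx2-2 had 1295, 1426, 1808 and 2354. Replicate 4 was the highest library for 17 of the 27 factors, against 24.6% of all genes. Neurog3, the endocrine progenitor factor, was low at 98, 89, 70 and 65.

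Genes encoding targets of autoimmunity in type 1 diabetes were among the evenest. The list's median spread was 0.13, and 16 of 17 listed genes were in the table. Ica1 had 3224, 2973, 3000 and 3138, Ptprn2 (IA-2β) had 32140, 32987, 31131 and 29574 and Gad1 had 3571, 2760, 3549 and 2716. The exception was Prph, peripherin of nerve fibres, with 2, 2, 148 and 82. Genes described as disallowed in beta cells, which mature beta cells keep low, took 0.0174% ± 0.00300 (SD, n = 4) of the total over 22 genes. Ldha, lactate dehydrogenase A, had 292, 250, 376 and 340, and Hk1, a high-affinity hexokinase, had 148, 224, 368 and 336.

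Marker lists of cells other than endocrine cells took up to 1.29% of the total, unequally between libraries. Such a list sums chosen genes and does not measure all RNA of a cell type. Acinar genes, which encode the digestive enzymes of exocrine pancreas, took 0.274%, 0.112%, 1.29% and 0.586% of the total. Their mean share was 0.565%, and 0.324% without replicate 3. Pnlip, pancreatic lipase, had 13831, 3038, 60097 and 31104, and Cpa1, a carboxypeptidase, had 5569, 2075, 28334 and 14457. Of 30 acinar genes, 29 were highest in replicate 3 and 26 lowest in replicate 2, against 22.5% and 19.1% of all genes. The remaining one, Bhlha15, had 1721, 1957, 1283 and 1316. Ductal genes took between 0.0925% and 0.137%, highest in replicate 3. Their 4 defining markers did not share that order. Krt19 had 46, 80, 47 and 76, Sox9 had 41, 35, 27 and 57, Spp1 had 1500, 1030, 951 and 1468 and Cftr had 89, 58, 37 and 36. Krt8, a keratin of the same list, had 2785, 3550, 12992 and 8948.

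Endothelial genes were the steadiest of the non-endocrine lists at 0.0626% ± 0.00598 (SD, n = 4). Still, 9 of 15 were highest in replicate 4 and 11 lowest in replicate 1, against 24.6% and 27.7% of all genes. Kdr, a receptor for vascular endothelial growth factor, had 4044, 4731, 3731 and 3734, and Pecam1 had 2035, 2204, 2597 and 2768. Stellate and mural genes did not share one order over the libraries. Rgs5, a pericyte gene, had 7400, 8174, 5518 and 6525. Fibrillar collagen genes ordered the libraries differently: Col1a1 had 41, 252, 424 and 656, and Col3a1 had 673, 1439, 2358 and 4197. Of 19 stellate genes 14 were highest in replicate 4 and 16 lowest in replicate 1, against 24.6% and 27.7% of all genes. Among 35 collagen and laminin genes, 26 were highest in replicate 4 and 24 lowest in replicate 1, against the same shares of all genes. One of them was Col4a1, a basement membrane collagen, at 7330, 11789, 11363 and 16197.

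Leukocyte marker lists took small shares in all 4 libraries. The macrophage list took 0.0116%, 0.0123%, 0.0218% and 0.0183%, with C1qa at 637, 922, 904 and 1079 and Adgre1 (F4/80) at 144, 165, 219 and 156. Of the 19 T and NK cell genes listed, 3 were in the table: Lck at 57, 24, 128 and 61, Cd4 at 33, 16, 98 and 49 and Il7r at 22, 10, 35 and 33. The other 16, Cd3e and Cd8a among them, were not analysed here. B cell genes did not follow one order. Ms4a1 (CD20) had 96, 3, 31 and 2 and Cd22 had 176, 21, 35 and 28, both highest in replicate 1. Immunoglobulin genes were highest in replicate 3, with Ighm at 416, 74, 1032 and 143, Igkc at 83, 2, 220 and 61 and the joining chain Jchain at 77, 2, 165 and 57. Cd79a, part of the B cell receptor, was nearly level at 239, 177, 247 and 206. Red blood cell genes were also highest in replicate 3, with Hbb-bs at 414, 588, 1873 and 1068. The part of these cell types in the differences between libraries was not tested.

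By class of RNA, nuclear protein-coding genes held 79.7% ± 1.60 (SD, n = 4) of the values. The 2 mitochondrial ribosomal RNAs held 18.4%, 15.9%, 13.2% and 14.9%, and the 13 mRNAs encoded by mitochondria 2.18%, 1.96%, 1.61% and 2.26%. Long intergenic RNAs held 0.586%, 0.628%, 0.987% and 0.884%, of which 74.1% was Malat1, a nuclear RNA. Rn7sk, the 7SK RNA that restrains transcription elongation, had 192341, 179664, 575456 and 607916. Rpph1, the RNA of ribonuclease P, had 5896, 5842, 38757 and 31123, and Rmrp, the RNA of the related ribonuclease MRP, had 3344, 4225, 24629 and 28791. All 3 noncoding RNAs were higher in replicates 3 and 4 than in replicates 1 and 2, against 28.1% of all genes with a mean of at least 50. Small structural RNAs are captured unevenly by library methods, and copies of one sequence share reads: the 4 U2 genes Rnu2-10, Gm23849, Gm23971 and Gm24950 had the same value within each library.

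Within the mitochondrial genome the transcripts did not vary as one. mt-Co1, a cytochrome oxidase subunit, had 328222, 299043, 230308 and 289738. mt-Atp8, a short subunit of ATP synthase, had 2253, 1460, 3127 and 13427. mt-Nd3 had 7045, 5851, 5932 and 13036 and mt-Nd1 had 36826, 31452, 31524 and 58799. Replicate 4 was the highest library for 10 of the 13 mRNAs, and replicate 1 for the other 3, which include mt-Co1 and mt-Co3. Over all genes those shares were 24.6% and 30.3%. The ratio of mt-Rnr2 to mt-Rnr1 per kb ranged from 5.74 to 7.17.

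Several lists of core cellular machinery took summed shares that varied by at most 1.26-fold between libraries. Cytosolic ribosomal protein genes held 1.52% ± 0.139, translation factors 1.05% ± 0.0435, nuclear genes of oxidative phosphorylation 0.491% ± 0.0493 and proteasome subunits 0.189% ± 0.0138 (SD, n = 4). Their median spreads were 0.19, 0.13, 0.19 and 0.16, against 0.19 over all genes with a mean of at least 50. However, 80 of the ribosomal protein genes and 59 of the oxidative phosphorylation genes had a mean of at least 1000. At means of 1000 to under 5000 the median over all genes was 0.15. Actin and tubulin genes were less even, at 0.202%, 0.207%, 0.431% and 0.374% of the total in replicates 1 to 4. Replicate 4 was the lowest library for 54 of 85 ribosomal protein genes and 48 of 79 oxidative phosphorylation genes, against 28.4% of all genes. Single ribosomal protein genes varied more: Rpl34 had 669, 716, 735 and 267, and Rpl22l1 had 1731, 1384, 1670 and 637.

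Across all genes, the controls were close but not uniform. Among 12833 genes with a mean value of at least 50, the median spread was 0.19, and the median ratio of the highest to the lowest library was 1.34. Within 1.2-fold lay 23.2% of them, 31.3% differed over 1.5-fold, 12.2% over 2-fold and 3.72% over 4-fold, a library at 0 counting as over each fold. Spread narrowed with level, from a median of 0.50 at means of 10 to under 50 to 0.15 at means of 1000 to under 5000. It was wider again, at 0.19, for the 270 genes with means of at least 10000. In that top class 8.89% of genes differed over 4-fold, against 1.86% at means of 1000 to under 5000. Fos, Egr1, Fosb, Btg2 and Nr4a1 are among these abundant but variable genes.

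**Figure D3:**
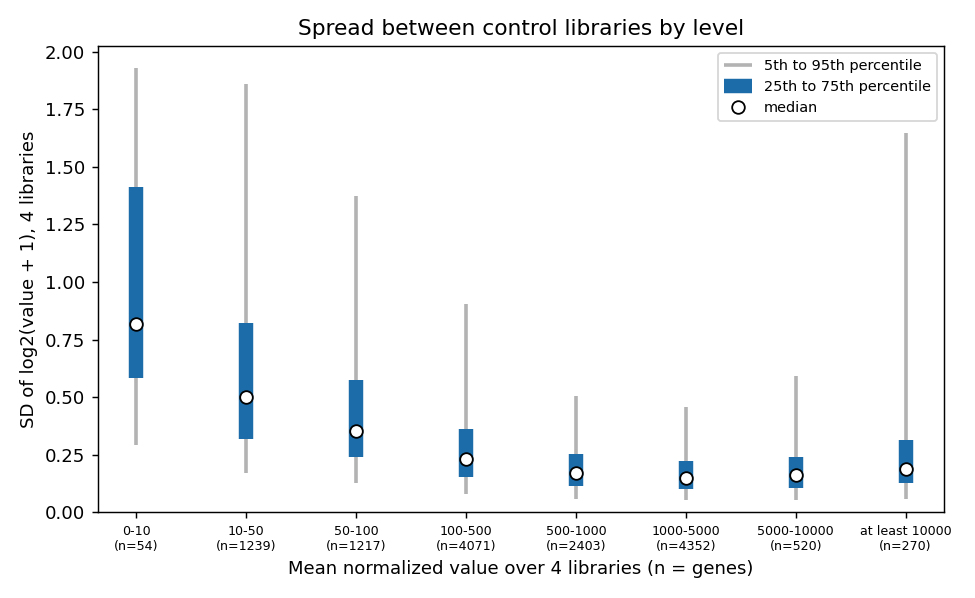
SD of log2(value + 1) over the 4 control libraries by class of mean value, with the number of genes in each. The median falls from 0.82 for means under 10 to 0.15 for means of 1000 to under 5000, and the 95th percentile reaches 1.65 in the class of at least 10000.

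Much of the spread lay between pairs of libraries. Across these genes, which are not independent replicates, Pearson's r of log2 values was 0.98 for replicates 1 and 2 and for replicates 3 and 4, and 0.93 to 0.94 for the other 4 pairs. Genes over 2-fold apart made up 1.78% and 1.43% in the close pairs, and between 7.02% and 7.41% in the others. Replicates 1 and 2 were the 2 highest libraries for 34.0% of genes, and replicates 3 and 4 for 28.1%. In 427 genes replicates 3 and 4 were both over 2-fold above the other 2, against 35 genes for replicates 1 and 2 and between 1 and 3 for any other pair. The labels give no batch, day or order that sets these pairs apart.

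Among the lists, the widest spreads were those of immediate early genes, which cells switch on within minutes of a stimulus, and of chemokine and NF-kB response genes. Both lists had a median of 2.67. The immediate early list ran from 0.0445% of the total in replicate 2 to 1.26% in replicate 4, and Egr1, a transcription factor of this class, had 1374, 645, 44176 and 49038. Il6, an inflammatory cytokine, had 2, 0, 674 and 497, and Cxcl1, a chemokine, had 5, 3, 397 and 418. Antigen presentation genes differed less, with a median of 0.85, and 17 of 18 were highest in replicate 3, against 22.5% of all genes. H2-D1, a class I molecule, had 5750, 5723, 11378 and 8551. Clock genes had a median of 0.51, and 14 of 18 were highest in replicate 3, against that same 22.5%. Per1 had 1054, 842, 7064 and 6074, whereas Clock had 7455, 7065, 5499 and 6294.

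**Figure D4:**
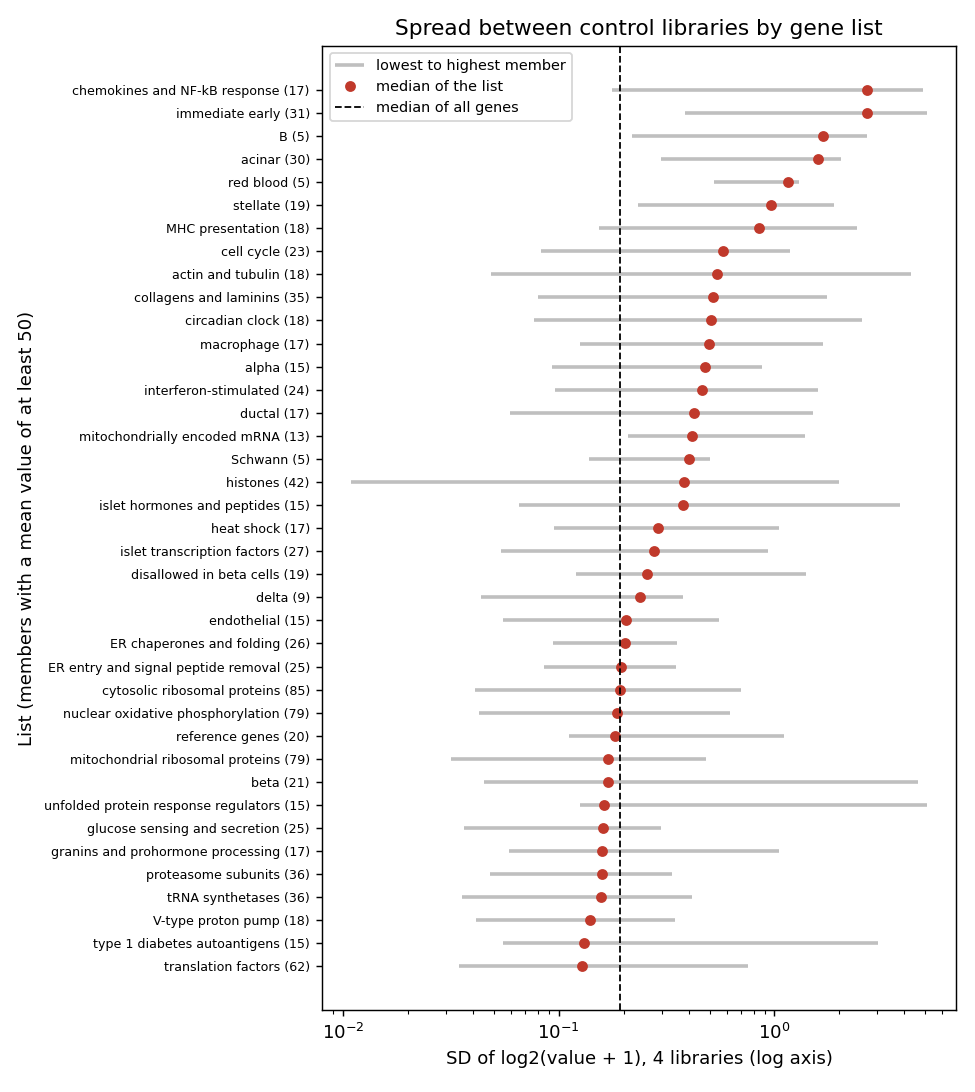
SD of log2(value + 1) over the 4 control libraries for each list with at least 5 measured members, as the median (red) and the range of members (grey, log axis); the dashed line is the median of all genes. Translation factors and autoantigens lie lowest at 0.13, and immediate early and chemokine genes highest at 2.67.

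Some genes set a single library apart. Replicate 2 was far above the others for genes of the smooth muscle contractile apparatus. Actg2 (gamma smooth muscle actin) had 1, 1291, 12 and 2, Cnn1 (calponin) had 9, 525, 14 and 6 and Tpm2 (tropomyosin) had 33, 1408, 73 and 88. Myh11, smooth muscle myosin, had 403, 4853, 506 and 550. Acta2 had 107, 2001, 173 and 274, Des (desmin) had 51, 1208, 152 and 169 and Tagln had 109, 1029, 158 and 220. The mural cell gene Rgs5 was also highest there, but by 1.48-fold over the lowest library. Replicate 2 was likewise highest for 18 of 23 cell cycle genes, against 22.7% of all genes. Mki67, a proliferation marker, had 1478, 2822, 822 and 958, and Top2a had 1199, 1975, 492 and 596. The order of the other 3 libraries was shared by these last 2 genes, with replicate 1 second. Cdkn1a (p21), a cell cycle inhibitor of the same list, had 207, 252, 1037 and 827.

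Replicate 1 was farthest from the rest for Atp4a, a subunit of the gastric proton pump, at 724, 149, 195 and 142, for Xlr3b at 424, 84, 83 and 19 and for Tnc (tenascin C) at 14, 243, 63 and 96. Replicate 3 stood above for small RNAs such as Rnu3a at 47, 31, 1102 and 270 and Snora73b at 221, 258, 1652 and 586, and for the amylase Amy2a5 at 737, 145, 2902 and 568. Replicate 4 was farthest for mt-Atp8, Mafa and Rpl34, given above.

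A few genes with a mean of at least 100 were at or near 0 in some controls. Zhx2, a homeodomain repressor at chr15:57694665-57839832, had 0, 221, 0 and 268. Fndc10, at chr4:155694342-155696481, had 4, 474, 2 and 551. These were the 2 genes of 12833 for which replicates 2 and 4 both lay over 8-fold above replicates 1 and 3. Galnt2, an enzyme that starts O-glycosylation, had 0, 75, 189 and 197. Vip, vasoactive intestinal peptide of nerve fibres, had 0, 1, 471 and 324. Xist, the RNA of the inactive X chromosome, had 22764, 23514, 12097 and 12658, so it was present in all 4.

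**Figure D5:**
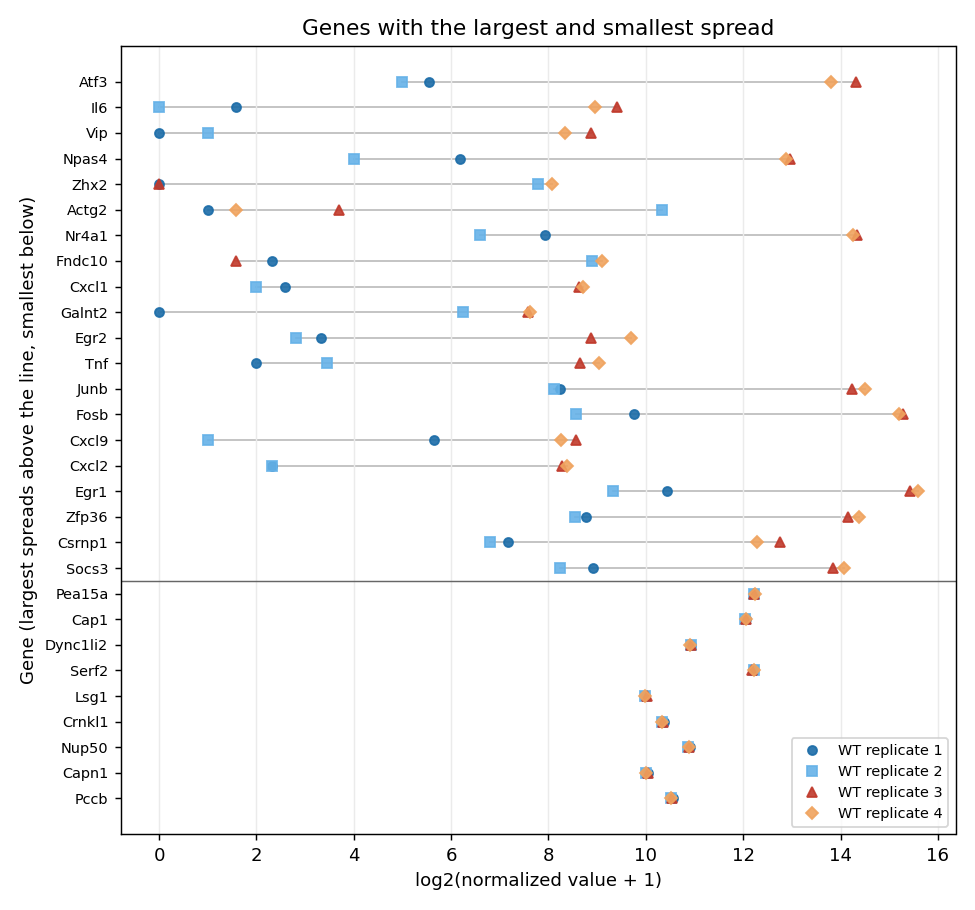
log2(value + 1) in each control library of genes among the 20 with the largest spread (mean of at least 100) and the 10 with the smallest (mean of at least 1000). In most of the upper genes replicates 3 and 4 lie to the right of replicates 1 and 2, whereas Zhx2 and Fndc10 split replicates 2 and 4 from 1 and 3, and Actg2 sets replicate 2 apart.

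Genes often used as references were not all even. Of 20, 5 differed over 2-fold between the controls, against 12.2% of all genes. Among these, Actb, beta actin, had 23146, 21428, 44675 and 45818, lower in replicates 1 and 2. B2m had 2509, 1654, 4796 and 4278 and Tuba1a had 8678, 7599, 23830 and 21089. Polr2a, the large subunit of RNA polymerase II, ran the other way at 1747, 1915, 891 and 834. Gapdh was steadier at 5387, 5879, 5700 and 6619, as were Eef1a1 at 130899, 131961, 120204 and 112127 and Tbp at 734, 637, 613 and 722, each with a spread between 0.11 and 0.13. The steadiest genes of the whole set with means of at least 1000 were not classical references. Pea15a, a phosphoprotein, had 4771, 4780, 4798 and 4845, and Cap1, an actin-cycling protein, had 4275, 4213, 4246 and 4277.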

How the data were processed

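Bulk RNA sequencing (total RNA, per the labels) of whole islets was analysed in the 4 control samples. The submitters' processing notes list the build GRCm38.p5, edgeR 3.16.15, RSEM 1.2.31, STAR 2.5.3a and bcl2fastq 2.20, with no role, order or setting. The sources used here do not say whether counting used strand. The authors deposited normalized counts rounded to whole numbers, treated here as a score and not as raw counts. Median-of-ratios factors over all 8 libraries lay between 0.994 and 1.01, although totals differed. Depth is unknown: the spacing of low values fitted a scaling factor only in part (correlation from 0.262 to 0.837 over the 4 libraries), so no counting interval is given, and precision rests on the spread between 4 libraries. No test between groups was made, as there is 1 group; Dixon's limit was used only to mark single libraries. No per-library column was without a sample.

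Values were used as deposited. Exon lengths and positions came from GENCODE M21 (GRCm38), in which 14114 of 14126 gene IDs were found. Spread used log2(value + 1) on genes with a mean of at least 50. Named genes were the 20 highest by value and per kb, up to 5 top members and the defining markers of each list, the 20 largest and 10 smallest spreads, the 5 farthest per library, all hormone, reference and sex-linked genes, Ern1 and Xbp1. Members of a list beyond its first 5, and Rpph1, Rmrp and the U2 copies, were named after their values were seen. The members and the 45 lists were chosen with earlier results of these data known. Of 619 hand-listed entries 557 were in the table, which had been filtered over all 8 samples, so genes that are low in all of them are not analysed here. A few genes under this rule are not reported here. Alternatives covered the denominator, exon length, pseudocount, minimum mean, scaling and each library left out. Scripts ran in Python 3 with numpy and pandas, tested on simulated data.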

Additional observations from a re-analysis of the deposited data

Results flagged for a closer look

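In 24 of 245 values looked at over the 4 controls, 1 library lay apart from the other 3 by Dixon's 95% limit. Chance flags about 1 in 20 groups, and many of these genes were named because 1 library was farthest or the spread was large, so their number is not read against chance. Over all 12833 genes with a mean of at least 50, 504 or 3.93% had such a library. Replicate 1 was apart for Atp4a (724), Cd22 (176), Ghrl (135) and Xlr3b (424), all high, and low for the endothelial list, at 0.0537% of the total. Replicate 2 was high for Acta2 (2001), Actg2 (1291), Cnn1 (525), Des (1208), Myh11 (4853), Tagln (1029) and Tpm2 (1408). It was also high for Ins2 (3357417), for the share of both insulin genes (15.8%) and for the autoantigen list (18.6%), which contains them. Replicate 3 was low for the share of the 10 most abundant genes (34.7%) and high for RNAs within introns on the sense strand (0.00197%). Replicate 4 was high for Chga (280471), Sst (122607), mt-Atp8 (13427) and mt-Nd3 (13036), and low for Rpl34 (267). It was high too for the delta list (0.389%) and for the Sst share of the 5 hormone genes per kb (3.37%), both of which rest on Sst.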

How the results depend on the processing

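Leaving out each library in turn moved the shares, ratios and numbers of genes that hold a share by less than 1 SD between libraries. A mean of 4 libraries cannot move by 1 SD when 1 is left out. This result was therefore fixed in advance and says nothing about robustness. With each library left out, the median spread was 0.17 to 0.20, with 9.34% to 10.1% of genes over 2-fold and 2.58% to 3.20% over 4-fold. The share of genes with an outlying library has no value for 3 libraries. Without mitochondrially encoded and small structural RNA genes in the total, the insulin genes held 18.1%, the 10 most abundant genes 25.7%, and 492 genes made up 50%. With the longest annotated transcript as length, Ins2 over Ins1 per kb was 1.94. With the median transcript it was 3.72, 111 genes made up 50% per kb, and the 10 most abundant held 39.5%. With no minimum mean, 5.60% of genes differed over 4-fold. With a minimum of 500, 5.63% differed over 2-fold and 2.11% over 4-fold. A minimum of 10 gave 16.1% and 5.39%. Other pseudocounts (0.1 and 10) and both rescalings, run on the spread values alone, moved each by less than 1.5 times. Without replicate 3 the acinar share was 0.324%, the chemokine and NF-kB share 0.0275% in place of 0.0425%, and the Reg family share 0.00395% in place of 0.00621%. No paired analysis was possible because the results come from no test and 1 group was used. Sequencing depth is unknown, which limits what low values can show.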

Other observations

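Several further gene groups were measured in the controls. Interferon-stimulated genes took 0.0431% ± 0.0199 (SD, n = 4) of the total, and 22 of 24 were highest in replicate 3, against 22.5% of all genes. Heat shock genes took 0.364% ± 0.0365, and 5 of 17 differed over 2-fold between the libraries, against 12.2% of all genes. Schwann cell genes took 0.0118% ± 0.00159, of which 83.4% was Mbp, the myelin basic protein. Sox10, the transcription factor that defines these cells, had 7, 3, 20 and 35.

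Aminoacyl-tRNA synthetase genes took 0.256% ± 0.0209 (SD, n = 4) and the subunits of the V-type proton pump, which acidifies granules, 0.196% ± 0.0165. None of the 36 synthetases and none of the 18 pump genes differed over 2-fold, against 12.2% of all genes with a mean of at least 50. However, 21 of the synthetases and 17 of the pump genes had a mean of at least 1000. At means of 1000 to under 5000 the share over 2-fold was 4.57%. Genes of mitochondrial ribosomal proteins took 0.127% ± 0.0103, and 1 of 79 was highest in replicate 3, against 22.5%. Histone genes, whose copies are alike in sequence and so uncertain one by one, took 0.141% ± 0.0502, and 24 of 42 were lowest in replicate 1, against 27.7% of all genes.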
